A study of Mus musculus with 16 samples.

Results

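The genes described here are 38 genes of the chaperone, folding and degradation machinery of the endoplasmic reticulum (ER), followed in kidneys of mice that lack Aquaporin-11. They were listed by name, and each was read from the probe sets that the platform annotation gives its symbol, older or current. All 38 were found and passed the filter on dim signals, out of 12500 genes tested and 18194 genes that the annotation names. Ero1l and Ero1lb are listed under their current symbols Ero1a and Ero1b. Whole kidneys of 9 Aqp11-/- pups and 7 Aqp11+/+ pups aged 7 days were measured on an Affymetrix mouse whole-genome array, with 1 animal on each array. The pups were littermates from 5 interbred pairs of Aqp11+/- mice. The knockout was made in a 129/SvEvBrd background and back-crossed repeatedly to C57/BL6, and the labels give C57BL/6J as the strain of every animal. No other allele and no treatment is named. There were 5 male and 4 female knockout pups, and 3 male and 4 female wild-type pups.

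Proteins bound for the cell surface or for secretion enter the ER through the Sec61 channel and fold there with the help of Hsp70 and Hsp90 chaperones, lectin chaperones and enzymes that form disulfide bonds. Chains that fail to fold are drawn back to the cytosol and degraded, which is called ER-associated degradation (ERAD). When unfolded chains accumulate, the membrane sensors IRE1, PERK and ATF6 start the unfolded protein response, in which XBP1 and cleaved ATF6 raise transcription of many of these genes and PERK acts through ATF4 and CHOP. Aquaporin-11 is itself a channel of the ER membrane, and kidneys that lack it are known for swollen, vacuolated proximal tubule cells. The comparison asks how loss of this channel changes gene expression in the young kidney.

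Many of these genes share a known promoter element, so their promoters are shown before the array values. The ER stress response element (ERSE), described in the human genes of the chaperones Hspa5, Hsp90b1 and Calr, is CCAAT and CCACG parted by 9 bases, on either strand. RefSeq promoter windows of GRCm38.p6, from 250 bases before the annotated start to 49 bases past its first base, were at hand for 27025 genes and for 33 of the 38 genes described here. Atf6, Manf, Hyou1, Derl1 and Sec61a1 had none in that set. An exact ERSE was found in 10 of the 33, which is 30.3%, and in 37 of the 27025 genes, which is 0.137%. Allowing 1 mismatch in the 10 fixed letters gave 16 of the 33 (48.5%) and 466 of all genes (1.72%). The related ERSE-II, ATTGG and CCACG parted by 1 base on either strand, was found in Herpud1 and Dnajb11 and in 12 genes in all (0.0444%). The 2 full windows below are those of Derl3, whose signal rose most, and of Hspa5, the gene of the central ER chaperone, with the exact ERSE in capitals and read 5′ to 3′ along the gene. They lie at chr10:75893148-75893447 on the plus strand and at chr2:34771840-34772139 on the plus strand.
Derl3: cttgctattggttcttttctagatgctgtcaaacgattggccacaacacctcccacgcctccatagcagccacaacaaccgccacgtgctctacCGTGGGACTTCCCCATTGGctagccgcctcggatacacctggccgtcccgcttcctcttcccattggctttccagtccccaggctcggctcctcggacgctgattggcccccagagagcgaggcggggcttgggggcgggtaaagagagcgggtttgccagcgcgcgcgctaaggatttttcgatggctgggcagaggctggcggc
Hspa5: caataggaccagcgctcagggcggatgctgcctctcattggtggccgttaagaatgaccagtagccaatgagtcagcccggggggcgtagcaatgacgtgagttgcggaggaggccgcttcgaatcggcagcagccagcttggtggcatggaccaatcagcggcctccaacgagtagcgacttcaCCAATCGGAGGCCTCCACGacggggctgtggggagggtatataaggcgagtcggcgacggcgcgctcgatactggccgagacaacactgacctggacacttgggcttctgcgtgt
Counted from the annotated start as 0, the ERSE began at base -156 in Derl3, in the opposite orientation to the gene, and at base -65 in Hspa5, in the same orientation.

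The other exact matches are shown with 20 bases on each side, to let the fixed letters be compared between genes. Creld2 (chr15:88819500-88819558, plus strand), Pdia6 (chr12:17266471-17266529, plus), Syvn1 (chr19:6046512-6046570, plus) and Calr (chr8:84847055-84847113, minus) each held 1 ERSE, in capitals.
Creld2: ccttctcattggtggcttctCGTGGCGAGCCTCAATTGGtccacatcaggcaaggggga
Pdia6: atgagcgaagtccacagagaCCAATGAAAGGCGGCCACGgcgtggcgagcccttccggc
Syvn1: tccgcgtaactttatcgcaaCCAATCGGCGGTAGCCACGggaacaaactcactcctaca
Calr: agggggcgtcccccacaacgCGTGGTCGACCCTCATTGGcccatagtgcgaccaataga
Hsp90b1 held 2, in opposite orientations, and the stretch that holds both is at chr10:86705513-86705676 on the minus strand.
Hsp90b1: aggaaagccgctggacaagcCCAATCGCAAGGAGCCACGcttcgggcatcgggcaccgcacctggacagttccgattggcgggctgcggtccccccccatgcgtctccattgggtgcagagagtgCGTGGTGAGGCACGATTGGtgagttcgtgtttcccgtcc
An ERSE was present as well in Ero1lb (chr13:12565662-12565720, plus), Canx (chr11:50325780-50325838, minus) and Dnajc3 (chr14:118937807-118937865, plus), whose signals did not pass the test below.
Ero1lb: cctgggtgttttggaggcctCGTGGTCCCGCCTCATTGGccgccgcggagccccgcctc
Canx: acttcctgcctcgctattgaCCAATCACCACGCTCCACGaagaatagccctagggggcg
Dnajc3: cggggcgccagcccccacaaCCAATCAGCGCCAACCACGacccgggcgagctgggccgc
The ERSE-II of Herpud1 (chr8:94386357-94386407, plus) and that of Dnajb11 (chr16:22857832-22857882, plus) are given last, again in capitals.
Herpud1: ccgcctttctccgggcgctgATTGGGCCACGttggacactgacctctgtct
Dnajb11: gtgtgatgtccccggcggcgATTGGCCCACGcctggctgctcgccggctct
A match is a string of letters and not a measured binding site. Of the other elements searched, TGACGTGG (193 genes, 0.714%) was found in Vcp alone of the 33, and TGATGNAA (1219 genes, 4.51%) in Herpud1 alone. CCAAT by itself, on either strand, was found in 24 of the 33 (72.7%) and in 11096 of all genes (41.1%).

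Values are log2 signals after quantile normalization, compared with limma at a Benjamini-Hochberg adjusted p under 0.05 over all 12500 genes, and a gene that passed is said to have risen or fallen in knockout kidneys. Aqp11 itself was 2.95 ± 0.33 in knockout (SD, n = 9) and 7.87 ± 0.16 in wild type (SD, n = 7), at least 30.3-fold lower, with 7 of 9 knockout arrays at the floor set on low signals. Trimmed mean array brightness ran from 124 to 236 in knockout and from 111 to 211 in wild type, and was not distinguishable between genotypes (exact permutation p = 0.85, two-sided). Among kidney markers, 9 of 10 proximal tubule genes fell and their summed signal was 12195 to 20775 in knockout and 27599 to 32990 in wild type. Of 12 macrophage genes 11 rose, with a sum of 5591 to 9128 in knockout and 2101 to 4148 in wild type. Of 7 injured tubule genes 6 rose, with a sum of 3449 to 4976 in knockout and 1502 to 1924 in wild type. Among fibroblast genes 3 of 7 rose (Col1a1, Col1a2 and Col3a1), and their sum was 22098 to 23955 in knockout and 19599 to 21164 in wild type, without overlap. Of 7 endothelial genes 3 fell, with a sum of 3087 to 4032 in knockout and 4266 to 5114 in wild type, also without overlap, and of 3 tested neutrophil genes S100a8 and S100a9 rose. For B and plasma cells, which make much of this machinery, 2 marker genes were tested and neither passed. Ighm differed by 0.38 (limma adjusted p = 0.103) and Cd79b by -0.13 (limma adjusted p = 0.704). The marker sum was 156 to 219 in knockout and 146 to 257 in wild type. The plasma cell gene Tnfrsf17 was at the floor on 8 of 9 knockout and 6 of 7 wild-type arrays. Pou2af1 was at the floor on 3 of 9 and 5 of 7. Medians were 3.85 in knockout and 3.53 in wild type for Ms4a1, and 3.06 and 3.69 for Cd79a. The plasma cell genes Jchain and Mzb1 were dim but mostly above the floor, with medians of 3.76 and 4.12 in knockout, against 3.71 and 4.27 in wild type. These arrays measured whole kidney, where a change in the cells present and a change in RNA per cell cannot be told apart, and the part of the shifted cell markers in the results below was not tested.

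In knockout kidneys 21 of the 38 genes rose and none fell, beside 9.37% of all genes tested that rose and 8.35% that fell. Differences were positive for 34 of the 38, with a median of 0.26 on the log2 scale, against a median of 0.00 over all genes. The signals of knockout and wild type did not overlap for 9 genes, all higher in knockout, while 2.91% of all genes were higher and 2.43% lower without overlap. Rises were mostly modest: 3 of the 21 were at least 2-fold, 7 at least 1.5-fold and 14 under 1.5-fold. Each of the 21 was above the wild-type mean on every knockout array. The same arrays chose the 21, so this was largely fixed in advance, and the share over all genes was not counted. The largest were those of Derl3, Sdf2l1, Creld2, Manf, Herpud1, Pdia4 and Edem1, which act in degradation, in the Hsp70 system, in disulfide exchange or as small proteins of the ER lumen.

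**Figure D1:**
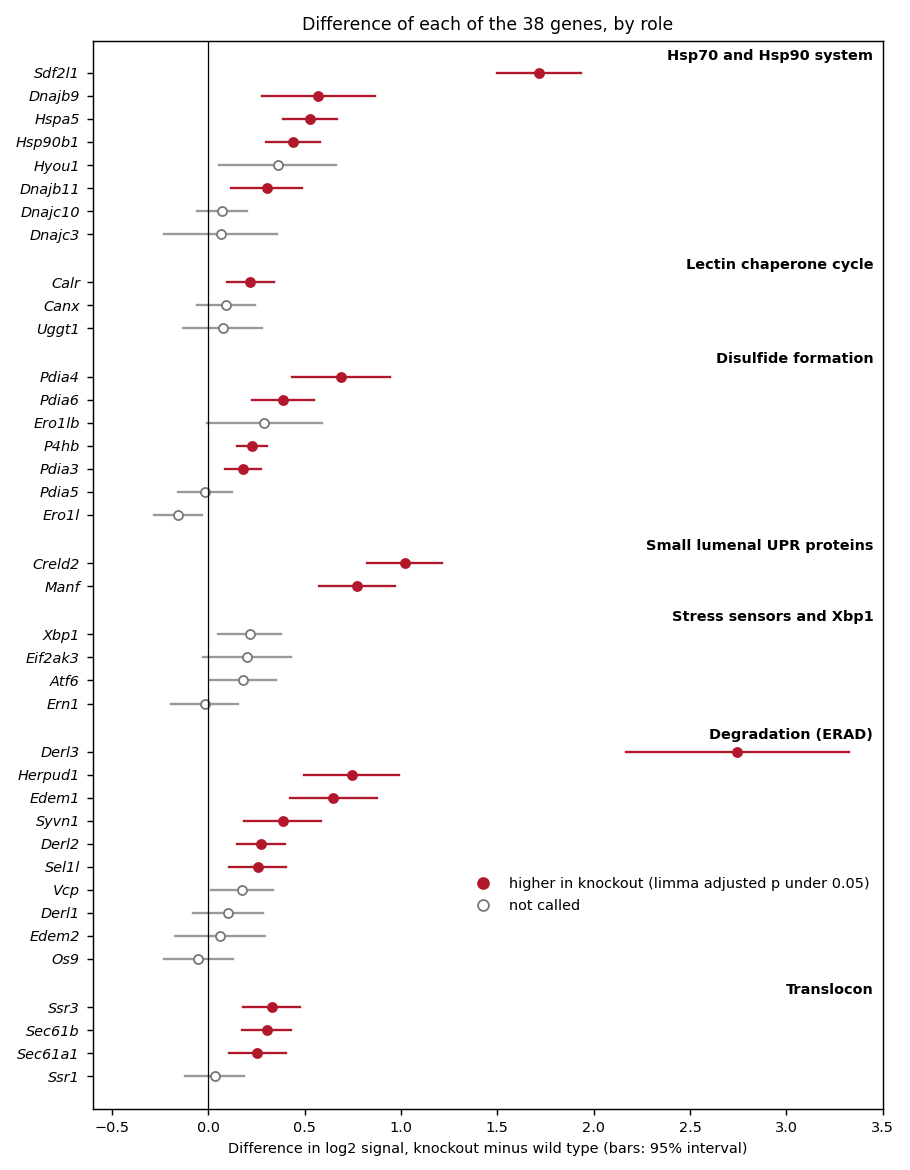
Difference in log2 signal, knockout minus wild type, for each of the 38 genes by role, with bars for the 95% confidence interval of the limma fit; filled points rose in knockout and open points did not pass. Derl3 stands at 2.74 and Sdf2l1 at 1.71, most others lie between 0 and 1, and none of the 4 sensor genes is filled.

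Of the 8 genes of the Hsp70 and Hsp90 system, 5 rose in knockout kidneys. Hspa5 encodes BiP, the Hsp70 of the ER lumen, and its log2 signal was 12.61, 12.67 and 12.81 in knockout (lowest, median and highest of 9), against 11.93, 12.13 and 12.48 in wild type (of 7). The groups did not overlap, and the knockout arrays lay closer together (SD 0.08) than the wild-type arrays (SD 0.20). The rise was 1.44-fold, or 0.53 on the log2 scale (SE 0.07, limma adjusted p = 8.94e-06). A second probe set of Hspa5 rose by 0.75 (limma adjusted p = 2.51e-07, over all probe sets tested), and a much dimmer one differed by 0.03 and did not pass (limma adjusted p = 0.953). Hsp90b1, the gene of the ER Hsp90 called GRP94, was 11.28, 11.41 and 11.58 in knockout, against 10.78, 10.93 and 11.21 in wild type. Its groups did not overlap either, and it rose 1.36-fold (limma adjusted p = 8.74e-05), while its second probe set differed by 0.32 without passing (limma adjusted p = 0.202).

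Sdf2l1, whose product works with the DnaJ protein encoded by Dnajb11 to keep chains soluble for BiP, rose most in this group. It was 7.75, 7.99 and 8.27 in knockout, against 6.10, 6.27 and 6.70 in wild type. Every knockout array was well above the highest wild-type array, and the rise was 3.28-fold (log2 1.71, SE 0.10, limma adjusted p = 4.09e-10). Dnajb9 encodes ERdj4, a DnaJ cochaperone of BiP, and was 9.16, 9.68 and 10.34 in knockout, against 8.78, 9.11 and 9.44 in wild type. Here the groups overlapped, with 6 of 9 knockout arrays above every wild-type array, and it rose 1.49-fold (limma adjusted p = 0.00666). Dnajb11, the gene of ERdj3, rose 1.23-fold (limma adjusted p = 0.0219), and leaving out wild-type animal 3-1 or 4-2 ended that call. It was lost as well under median scaling (limma adjusted p = 0.0787) and in females, brighter arrays or dimmer arrays alone.

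The other 3 genes of the group did not pass. Hyou1 encodes GRP170, which exchanges the nucleotide of BiP, and was 7.95, 8.45 and 8.88 in knockout, against 7.82, 7.97 and 8.76 in wild type. Wild-type animal 4-2 lay at 8.76, above 7 of the 9 knockout arrays, and the difference was 0.36 (limma adjusted p = 0.0986). Without that animal, or without knockout animal 3-2, Hyou1 passed, as did its second probe set, which rose by 0.78 (limma adjusted p = 0.00851). Dnajc3, the gene of the cochaperone p58IPK, differed by 0.06 (limma adjusted p = 0.823), with one of its other probe sets risen by 0.67 (limma adjusted p = 0.000514) and 3 others not passing. Its difference was 0.34 within the 8 brighter arrays and -0.13 within the 8 dimmer ones. Dnajc10, which encodes the ER reductase ERdj5, differed by 0.07 (limma adjusted p = 0.503).

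The 2 genes of small lumenal proteins that the unfolded protein response induces both rose without overlap. Creld2 encodes an ER protein with motifs like those of disulfide isomerases, part of which is secreted, and was 9.49, 9.75 and 10.01 in knockout, against 8.37, 8.73 and 9.12 in wild type. It rose 2.03-fold (log2 1.02, SE 0.09, limma adjusted p = 1.27e-07). Manf, whose product binds BiP and is secreted when ER calcium falls, was 10.73, 10.93 and 11.21 in knockout, against 9.90, 10.17 and 10.69 in wild type. Its highest wild-type value, that of animal 2-1, lay just under the lowest knockout value, and it rose 1.71-fold (limma adjusted p = 6.03e-06).

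**Figure D2:**
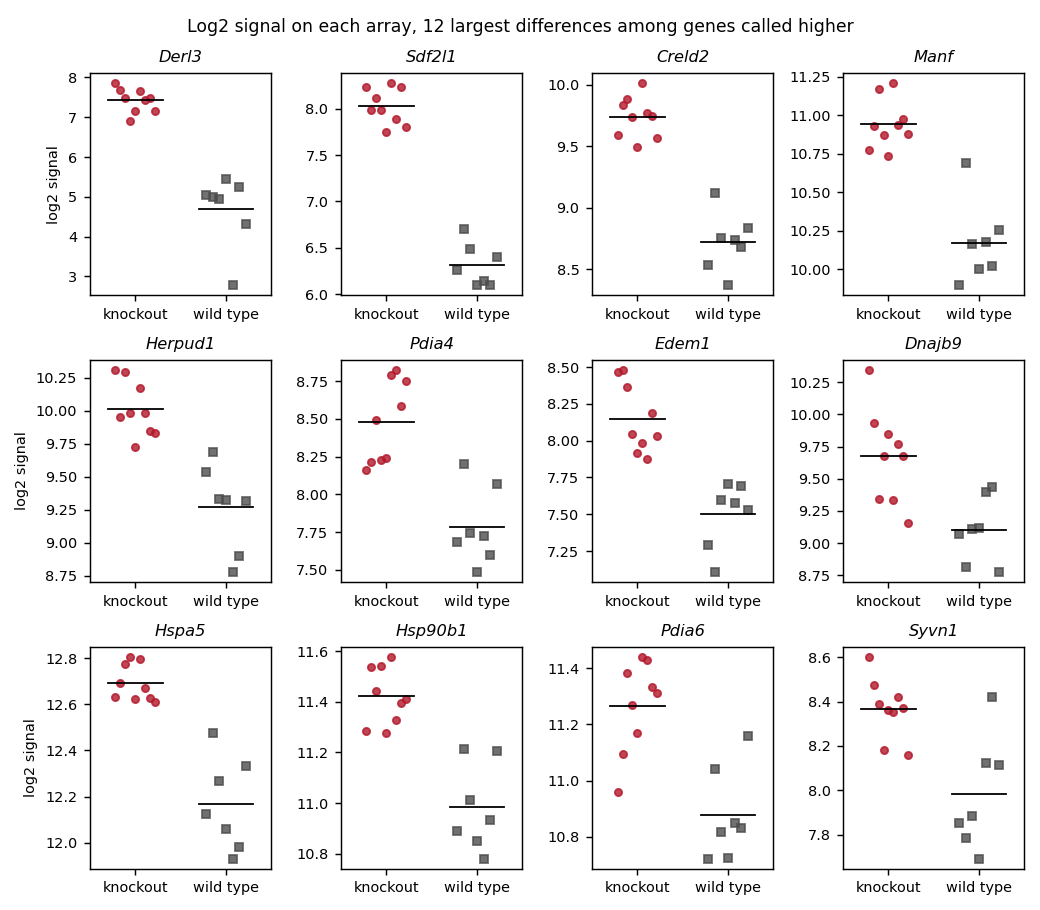
Log2 signal on each array for the 12 genes with the largest differences among those that rose, with knockout animals (circles, n = 9) left of wild-type animals (squares, n = 7) and a line at each mean; each panel has its own axis, which does not start at 0. The groups are separate for Derl3, Sdf2l1, Creld2, Manf, Herpud1, Edem1, Hspa5 and Hsp90b1, and overlap for Pdia4, Dnajb9, Pdia6 and Syvn1.

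Among the 7 genes of disulfide formation, 4 rose and 3 did not pass. Pdia4, the gene of the isomerase ERp72, was 8.16, 8.50 and 8.82 in knockout, against 7.49, 7.72 and 8.20 in wild type. Only knockout animal 1-2 lay below the highest wild-type animal, and Pdia4 rose 1.61-fold (log2 0.69, SE 0.12, limma adjusted p = 0.000343). Averaged with its second probe set, which was too dim to test and differed by -0.36, Pdia4 differed by 0.16 and did not pass (limma adjusted p = 0.429), and it did not pass among females alone or brighter arrays alone. Pdia6, the gene of the isomerase P5, was 10.96, 11.31 and 11.44 in knockout, against 10.72, 10.83 and 11.16 in wild type. It rose 1.31-fold (limma adjusted p = 0.00101), and a dim second probe set differed by 0.05 (limma adjusted p = 0.954). P4hb, the gene of protein disulfide isomerase itself, rose only 1.17-fold, yet its groups did not overlap. Its values were 11.74, 11.78 and 11.93 in knockout, against 11.55, 11.57 and 11.61 in wild type, where the SD was 0.02 (limma adjusted p = 0.000163). Pdia3, the gene of ERp57, the isomerase that works with the lectin chaperones, rose 1.13-fold (limma adjusted p = 0.00676), and its dim second probe set differed by -0.06 (limma adjusted p = 0.867). That call was lost under median scaling (difference 0.17, limma adjusted p = 0.223), with the probe sets averaged (0.06, limma adjusted p = 0.673), and in females, brighter arrays or dimmer arrays alone.

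The oxidases that recharge these isomerases did not pass. Ero1l, the widely expressed ER oxidase, was 8.30, 8.43 and 8.56 in knockout, against 8.46, 8.57 and 8.78 in wild type, the most negative difference of the 38 at -0.16 (SE 0.06, limma adjusted p = 0.0715). Its exact permutation p was 0.00192 (two-sided, not adjusted), and leaving out knockout animal 5-2 brought it past the threshold as a fall. Its other probe sets disagreed in direction and did not pass. A dimmer probe set of Ero1l differed by -0.09 (limma adjusted p = 0.509), and the dimmest by 0.21 (limma adjusted p = 0.0606). Ero1lb, the second oxidase, was 6.10, 6.57 and 6.94 in knockout, against 5.81, 6.27 and 6.67 in wild type (difference 0.29, limma adjusted p = 0.184). Its probe sets disagreed, since a dimmer one fell by 0.75 (-0.75, limma adjusted p = 0.0335) and another differed by 0.02. Pdia5 differed by -0.02 (limma adjusted p = 0.908).

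The lectin chaperones, which hold glycoproteins until folded, moved little. Calr encodes calreticulin and was 11.40, 11.49 and 11.74 in knockout, against 11.18, 11.32 and 11.45 in wild type. It rose 1.16-fold (limma adjusted p = 0.0118), and its other 2 probe sets rose by 0.24 and 0.26. Canx, the gene of its membrane-bound relative calnexin, differed by 0.09 (95% interval -0.06 to 0.24, limma adjusted p = 0.443). Uggt1, the gene of the enzyme that marks unfolded glycoproteins for another round, differed by 0.07 (95% interval -0.13 to 0.28, limma adjusted p = 0.686).

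None of the 4 genes of sensors and their transcription factor passed, at adjusted p between 0.0641 and 0.912 in the limma fit, and 2 of them, Xbp1 and Atf6, had an unadjusted exact permutation p under 0.05. Xbp1 encodes the factor that IRE1 activates by splicing its mRNA, a step these probe sets were not used to measure. It was 10.85, 11.22 and 11.41 in knockout, against 10.72, 10.99 and 11.18 in wild type, a difference of 0.21 (limma adjusted p = 0.0641). Leaving out knockout animal 5-2 or wild-type animal 2-1 brought Xbp1 past the threshold, as did a term for sex (limma adjusted p = 0.0379) or for array brightness (limma adjusted p = 0.0223), and 1 of its 3 other probe sets rose by 0.26 (limma adjusted p = 0.0391). Atf6 differed by 0.18 (limma adjusted p = 0.155), and its dimmest probe set rose by 0.77 (limma adjusted p = 0.00433). Eif2ak3, the gene of PERK, differed by 0.20 (limma adjusted p = 0.24), and Ern1, the gene of IRE1 alpha, by -0.02 (limma adjusted p = 0.912). The sensors are known to be switched on as proteins, which mRNA arrays do not measure.

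In ERAD, 6 of 10 genes rose, Derl3 most of all. Derl3 encodes a derlin, one of the membrane proteins through which misfolded chains leave the ER. Its log2 signals in knockout animals were 7.85 in 1-2, 7.69 in 2-3, 7.49 in 2-4, 6.92 in 3-2, 7.16 in 3-3, 7.67 in 3-4, 7.43 in 4-3, 7.48 in 4-4 and 7.17 in 5-2. In wild type they were 5.04 in 1-1, 5.00 in 2-1, 4.94 in 2-2, 5.45 in 3-1, 2.78 in 4-1, 5.25 in 4-2 and 4.32 in 5-1. On the means the rise was 6.7-fold (log2 2.74, SE 0.28, limma adjusted p = 4.95e-07). Animal 4-1, at the floor of 2.78, lay far below the other wild-type animals and made that value larger. The medians were 7.48 in knockout and 5.00 in wild type, and over 36 alternatives the log2 difference was 2.30 to 3.33. Derl3 was above the filter on dim signals on all 9 knockout and 5 of 7 wild-type arrays, the other 37 genes on all 16 arrays. Its paralog Derl2 rose 1.21-fold (limma adjusted p = 0.00234), though a second probe set differed by 0.03 (limma adjusted p = 0.852). Derl1 differed by 0.10 (limma adjusted p = 0.481), with 1 of 3 other probe sets risen by 0.27 (limma adjusted p = 0.0192).

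Herpud1, whose product HERP organizes the ERAD ubiquitin ligase complex, was 9.73, 9.99 and 10.31 in knockout, against 8.78, 9.33 and 9.69 in wild type. It rose 1.67-fold without overlap (log2 0.74, SE 0.12, limma adjusted p = 0.00012), and its second probe set rose by 0.71. Edem1 encodes a protein that trims mannose from glycoproteins to mark them for disposal, and was 7.88, 8.04 and 8.48 in knockout, against 7.11, 7.58 and 7.71 in wild type. It rose 1.57-fold without overlap (limma adjusted p = 0.000208), and its second probe set by 0.42, while its relative Edem2 differed by 0.06 (limma adjusted p = 0.779). Syvn1, the gene of the ubiquitin ligase HRD1, was 8.16, 8.37 and 8.60 in knockout, against 7.69, 7.88 and 8.42 in wild type. Wild-type animal 4-2 was above 7 of 9 knockout arrays, as for Hyou1, and Syvn1 rose 1.31-fold (limma adjusted p = 0.00656). Sel1l, the gene of the adaptor of HRD1, rose 1.19-fold (limma adjusted p = 0.0142), and 2 of its 4 other probe sets rose by 0.38 and 0.42. Os9, a lectin that hands chains to HRD1, differed by -0.05 (limma adjusted p = 0.759). Vcp, the gene of the p97 ATPase that pulls chains into the cytosol, differed by 0.17 (limma adjusted p = 0.133), and passed without knockout animal 1-2.

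Of the 4 translocon genes 3 rose, all by under 1.3-fold. Ssr3, a subunit gene of the translocon-associated complex TRAP, was 11.10, 11.46 and 11.53 in knockout, against 10.85, 11.10 and 11.24 in wild type, and rose 1.26-fold (limma adjusted p = 0.00243). Its other probe set rose by 0.29. Sec61b and Sec61a1, which encode the beta and alpha subunits of the channel, rose 1.23-fold (limma adjusted p = 0.00122) and 1.19-fold (limma adjusted p = 0.0155), and 4 of the 5 other probe sets of Sec61a1 rose, by 0.30 to 0.41. The call of Sec61a1 was lost under median scaling and in females, brighter arrays or dimmer arrays alone. Ssr1, another TRAP subunit gene, differed by 0.03 (limma adjusted p = 0.827).

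**Figure D3:**
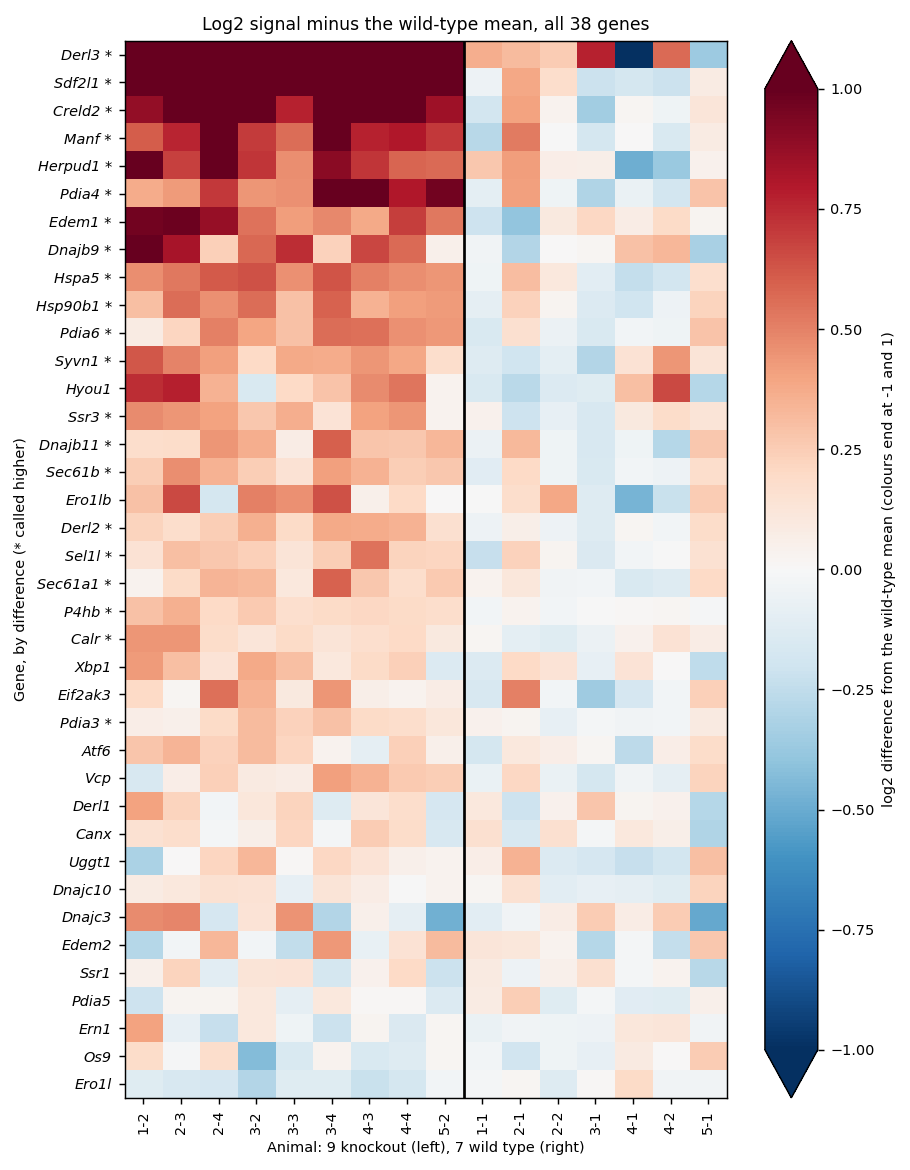
Log2 signal minus the wild-type mean for the 38 genes (rows, largest difference at the top, asterisks for genes that rose) on each array (columns, 9 knockout animals left of 7 wild-type animals); red is above and blue below the wild-type mean, and colours stop at 1. The upper rows are red on every knockout array, and wild-type column 2-1 is red in many of the same rows.

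The rise was present in all 9 knockout kidneys. The mean of the 38 genes lay 0.27 to 0.45 above the wild-type mean in knockout animals, and -0.08 to 0.11 from it in wild-type animals. Each knockout animal had 17 to 23 of the 38 genes above the highest wild-type value, the fewest in animal 5-2. That count was not made over all genes tested, so no share stands beside it. Animal 5-2 also had the lowest knockout value for 11 genes and animal 3-3 for 10, while animal 3-4 had the highest for 11. Among wild-type animals, 2-1 was highest for 15 genes, including Hspa5, Hsp90b1, Manf, Creld2, Sdf2l1 and Herpud1, and 5-1 for 9. Wild-type animals 2-1 and 2-2 had the highest macrophage sums of their group, 4148 and 3887. Animal 2-2 was highest for only 1 gene, and the macrophage sum of animal 5-1 was 2457. Whether these sums go with the 38 genes was not tested. Without animals 2-1 and 2-2, 21 genes rose as well, but not the same 21. Calr no longer passed (difference 0.18, limma adjusted p = 0.0742) and Xbp1 did (difference 0.28, limma adjusted p = 0.0263). The spread over animals was smaller in knockout than in wild type for 23 of the 38 genes and not smaller for 15, and that difference was not tested.

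Every gene that rose had the same direction in both sexes and in arrays of either brightness. All 21 were higher in knockout among males alone and among females alone, and within the 8 brighter and the 8 dimmer arrays. The same arrays chose the 21, so this was largely fixed in advance and is no separate support. Of the 38, 20 rose in males alone, 10 in females alone, 15 in brighter arrays alone and 13 in dimmer arrays alone. Of all 12500 genes tested, 1417, 681, 1333 and 1183 passed in these subsets, in either direction. Of all 38, 27 differences were positive in both sexes and 31 both within the brighter and within the dimmer arrays. The shares of such positive differences over all genes tested were not counted. Dnajb9 differed by 0.27 in males and 0.90 in females, and Pdia4 by 0.94 in males and 0.45 in females. No gene passed a test of whether the difference varied by sex (0% of genes tested with limma, 1354 of 12500 at an unadjusted p under 0.05). Among the 38, 6 had an unadjusted p under 0.05 and the smallest adjusted p was 0.455, for Derl1 in the limma interaction fit. Some differences were unequal between brighter and dimmer arrays, which was not tested. Dnajb9 differed by 0.92 within the brighter arrays and 0.25 within the dimmer ones, Syvn1 by 0.60 and 0.12, and Pdia4 by 0.43 and 0.89.

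Second probe sets bore on many of these calls. The 38 genes had 96 probe sets, and 29 genes had more than 1. Of the 58 that were not the brightest of their gene, 51 were bright enough to test, and 18 rose, 1 fell and 32 did not pass. Of the 21 genes that rose, 12 had another tested probe set and for 8 of these at least 1 of them rose too. Of the 17 genes that did not pass, 5 had another probe set that rose, namely Atf6, Derl1, Dnajc3, Hyou1 and Xbp1. Probe sets of one gene can cover different transcript ends, which was not examined here.

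Set against the promoters shown above, 7 of the 10 genes with an exact ERSE rose, with a median difference of 0.39 and a range of 0.06 to 2.74. Beside this, 21 of all 38 genes and 9.37% of all genes tested rose. Hspa5, Hsp90b1 and Calr, in whose human genes the element was described, are among the 10. Whether a match goes with a rise was not tested. Of the 6 with 1 mismatch at best (Herpud1, Pdia4, Derl2, Sel1l, Pdia3 and Vcp), 5 rose, with a median of 0.26. Of the 17 with 2 or more mismatches, 7 rose, with a median of 0.20, among them Sdf2l1, Dnajb9 and Edem1. Both genes with an ERSE-II rose. The ERSE was also found in 27 genes outside the 38, of which 6 were tested: none of these rose, Spats2l fell by 0.29 (-0.29, limma adjusted p = 0.00981), and the median was 0.07.

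**Figure D4:**
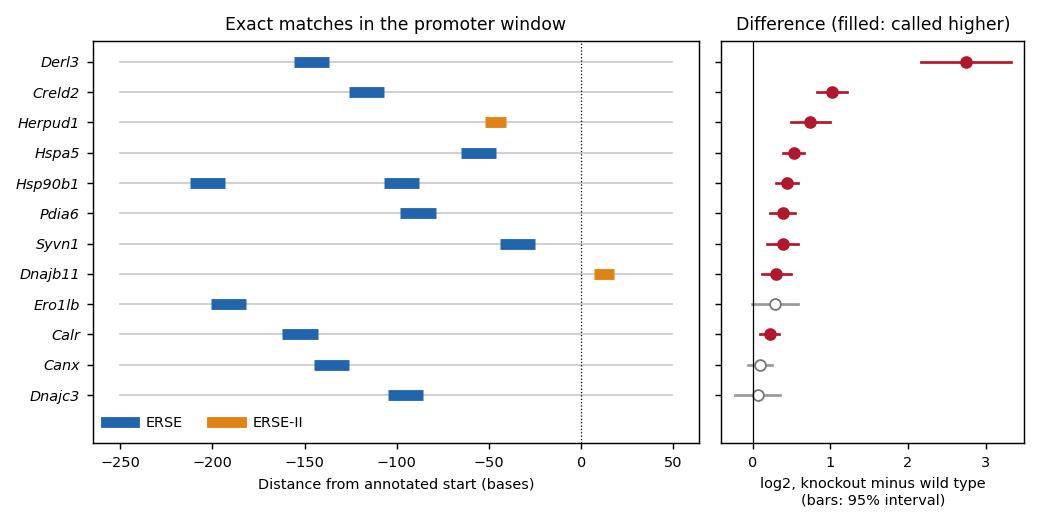
Left, places of exact ERSE (blue) and ERSE-II (orange) matches in promoter windows of 12 genes, as distance in bases from the annotated start; right, the difference in log2 signal, knockout minus wild type, with 95% intervals and filled points for genes that rose. All but the match of Dnajb11 lie before the start, and Ero1lb, Canx and Dnajc3 carry a match without having passed.

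Other genes of the same compartment were counted in lists of their own, and no test set one list against another. Beside the counts below, 9.37% of all genes tested rose and 8.35% fell. Of 18 other ER oxidoreductases and isomerases only the prolyl isomerase gene Fkbp11 rose, 1.54-fold (limma adjusted p = 0.000841), and the median was 0.02. Of 8 other ER Hsp70 cofactor genes Sec63 and Dnajc1 rose, and the median was 0.03. Of 21 other ERAD genes Hm13 (1.41-fold, limma adjusted p = 0.000334), Ube2g2 and Ube2j2 rose, and Rnf5, the gene of a membrane ubiquitin ligase, fell by 0.27 (-0.27, limma adjusted p = 0.00556). Of 18 other genes of the translocon and signal peptidase, 5 rose, among them Serp1, Spcs3 and Ssr4 by 1.2 to 1.28-fold, and Sec62 fell by 0.24 (-0.24, limma adjusted p = 0.00594). Of 10 oligosaccharyltransferase genes Rpn2, Krtcap2 and Ostc rose. Of 20 genes of transport between ER and Golgi 4 rose, led by Kdelr3 (1.63-fold, limma adjusted p = 1.88e-05), a receptor gene that returns escaped ER chaperones, and by the coat gene Sec24d (1.29-fold, limma adjusted p = 0.000164).

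Most genes rose on a list of the genes of ATF4 and CHOP, the factors through which PERK acts, and of their targets. Of 15 tested genes on that list, 12 rose and 1, Vldlr, fell, with a median of 0.68. Over all genes tested, 9.37% rose and 8.35% fell. PERK activity was not measured, and whether PERK drove these genes was not tested. Trib3 (1 wild-type array at the floor) rose at least 6.64-fold, Atf3 5.06-fold, Asns 3.21-fold and Ddit3 2.79-fold. Atf4, which like the CHOP gene Ddit3 is counted in the list, rose 1.36-fold (limma adjusted p = 1.08e-05).

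**Figure D5:**
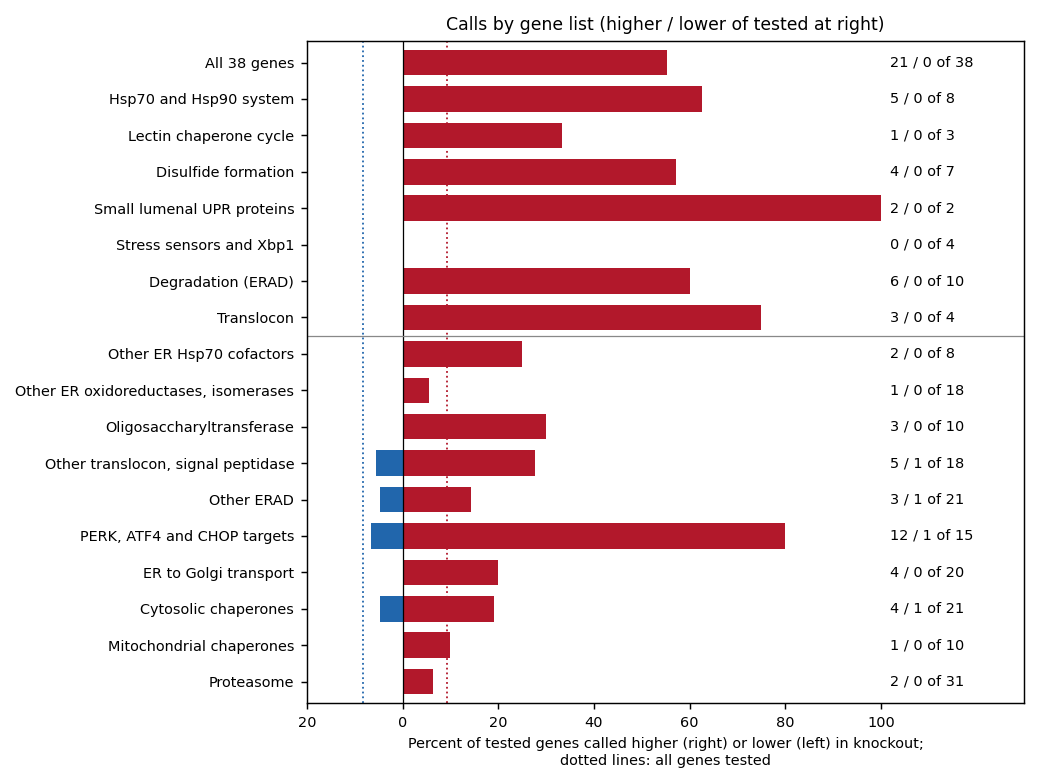
Percent of tested genes that rose (red, right) or fell (blue, left) in knockout kidneys, for the 38 genes, their 7 roles and 10 other lists, with counts at the right and dotted lines for all genes tested at 9.37% and 8.35%. The disulfide, ERAD, Hsp70 and translocon roles stand at 57.1% to 75%, none of the 4 sensor genes rose, and the PERK list stands at 12 of 15.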

How the data were processed

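RNA of whole kidneys from 9 knockout and 7 wild-type pups was measured on 16 arrays, which are the replicates, so their number limits the precision. The deposited values are signal intensities on a linear scale, made by the authors with GCOS 1.3 per the submitters' processing notes. Scaling between arrays is not described in those notes. Trimmed means differed 2.12-fold, so intensities were quantile normalized, floored at the 20th percentile (a signal of 6.89) and taken to log2. A floor understates folds of dim genes, and quantile normalization would hide a change in total mRNA. Each gene was read from its brightest probe set that names 1 gene, and tested if above the 40th percentile of its array on at least 7 arrays. Genotypes were compared with limma 3.58.1 in R 4.3.3 (variance trend, all 16 arrays, genotype as the term), adjusted over all genes, and checked on simulated data. Single values used exact permutation of the genotype labels. The 12 largest differences past the threshold, and genes at the floor or with disagreeing probe sets, are described singly and drawn array by array, and up to 4 genes with the smallest p are named from each other list. Spats2l, Vldlr, Atf4 and Hspa2 were named after their values were seen. The 38 genes and all lists were chosen with earlier results of these data known. Alternatives covered normalization, floor, filter, probe sets, variance model, sex, sample number and brightness, and each array left out.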

Additional observations from a re-analysis of the deposited data

Results flagged for a closer look

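Values of each of the 38 genes were screened for a single animal far from the rest of its group, in 76 groups, of which chance flags about 1 in 20. The screen marked 2 values. Derl3 in wild-type animal 4-1 was at the floor of 2.78, against 4.32 in the next lowest and 5.45 in the highest wild-type animal. Sel1l in knockout animal 4-3 was at 10.13, against 9.89 in the next highest and 9.72 in the lowest knockout animal.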

How the results depend on the processing

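Over 36 alternatives, 6 of the 38 genes rose in each (Creld2, Derl3, Herpud1, Hspa5, Manf and Sdf2l1), 8 passed in none, and 24 changed sides of the threshold at least once. With the deposited intensities unnormalized, 438 genes passed and 7 of the 38 rose, against 2215 and 21. Passing genes numbered 1417 in males alone, 681 in females alone (10 of the 38 risen), 1333 in brighter arrays alone and 1183 in dimmer arrays alone (13 risen), all with fewer samples. Of the 38, 1 fell, where none did otherwise, with no filter, array weights or sex as a term (Ero1l) and with the second brightest probe set (Ero1lb). In that last setting 35 of them could be tested, and a gene with only 1 probe set kept it. The differences of such genes, among them Creld2, Derl3, Manf and Sdf2l1, could not change there or with probe sets averaged. The second brightest probe set turned 2 differences, of Pdia3 to -0.061 and of Ero1lb to -0.75, and the cause was not tested. Leaving out each animal in turn, 0 to 1 fell, the 1 being Ero1l without knockout animal 5-2. With the first sample number as a replicate block, 2655 genes passed and 23 of the 38 rose, or 2605 and 23 with sex added, the gains being Hyou1 and Xbp1. Deviations of same-numbered animals correlated at -0.01 to 0.32, not all over 0.1, so the main fit did not take the numbers as pairs. Groups this small cannot settle whether a number marks a litter, and the labels do not say.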

Other observations

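Chaperones of other compartments were measured on the same arrays. Of 21 cytosolic chaperone genes 4 rose in knockout kidneys and 1 fell, with a median difference of 0.12. The small heat shock genes led, with Hspb1 risen 2.37-fold (limma adjusted p = 5.62e-09) and Hspb8 1.68-fold (limma adjusted p = 0.00373), while the chaperonin subunit gene Cct5 rose 1.12-fold and the Hsp110 gene Hspa4 1.18-fold. Hspa2, an Hsp70 gene known for its part in sperm formation, fell by 0.34 (-0.34, limma adjusted p = 0.0323). Of 10 mitochondrial chaperone and protease genes only Lonp1 rose, 1.17-fold (limma adjusted p = 0.0129), and the median was 0.02. Of 31 proteasome genes Psma3 and Psmd8 rose, by 1.1-fold and 1.22-fold, and the differences of 30 of the 31 were positive, with a median of 0.09. Beside these counts, 9.37% of all 12500 genes tested rose, 8.35% fell, and 6341 had a positive difference. The share that rose was 6.45% for the proteasome list and 10% for the mitochondrial list, both near that of all genes.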
